A study of Mus musculus with 8 samples.

Results

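The cytosolic ribosomal protein genes encode the proteins of the ribosome that translates nuclear-encoded mRNA. They were taken by symbol: a gene counted as a member when its symbol was Rps or Rpl followed by a number and at most one of the letters a, x or l, or when it was Rpsa, Rplp0, Rplp1 or Rplp2. This gave 80 of the 21895 listed genes. Of these, 77 had a mean of at least 0.5 FPKM (fragments scaled by transcript length and by the number of mapped fragments) over the libraries, 31 of the small and 46 of the large subunit, and the values below are theirs. Rps3a1, Fau and Rack1 also encode ribosomal proteins but fall outside the symbol rule, and they are given apart.

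The RNA came from the cochlea of mice with miR-29a (WT) and of mice without it (KO, miR-29a-/-), of both sexes, on a C57BL/6 background and bred from heterozygous parents. Each genotype had 4 libraries, which carry the numbers 1 to 4 after WT or KO. The paper's figure legend for this sequencing names fewer samples per group than were deposited. Which libraries the authors used is not stated, so no fit here on fewer libraries is known to use the same ones. No other allele and no treatment was named for either group, and the deleted miRNA itself was not analysed here, so the labels were not checked by it. The methods give an age of 2 months, while the sample records give 21 days. Nothing says whether each library came from a separate animal, so a p-value here measures the spread between libraries, which may be technical.

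The cytosolic ribosome has a small subunit, which decodes the mRNA, and a large subunit, which joins amino acids. Each ribosome carries 1 copy of nearly every protein, the exceptions being the acidic proteins of the large subunit stalk, and free ribosomal proteins are degraded in the nucleus. Most of these genes start their transcripts with a run of pyrimidines, the 5′ terminal oligopyrimidine tract, through which their translation answers to mTOR. In tissue, their mRNA is most abundant in growing and dividing cells and in secretory and blood-forming precursors.

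MiR-29a acts through its seed, bases 2 to 8 of the mature strand, which pair with TGGTGCT in a 3′-UTR. The mature strands from RefSeq (GRCm38.p6) are shown because they define the sequence searched for in the members, and the seed is in capitals. The family of 3 shares this seed. The paper describes the strain as deficient in miR-29a, and the other family members were not examined here.
mmu-miR-29a-3p: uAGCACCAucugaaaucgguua
mmu-miR-29b-3p: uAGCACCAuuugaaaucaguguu
mmu-miR-29c-3p: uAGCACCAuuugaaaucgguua

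Few members held that match. TGGTGCT, searched on the transcribed strand, was present in 5 of the 77 members (6.49%) when the longest 3′-UTR that GENCODE gives was read, against 2294 of 14832 tested genes with a 3′-UTR (15.5%). The 3′-UTRs also differed in length, with a median of 173 bases for the members and 1181 for the tested genes. A longer 3′-UTR has more room for a match, and these shares were not adjusted for length. The 5 members were Rps20, Rpl22, Rpl5, Rps3 with 2 matches and Rps15a with 4. The first match of each is printed below with its flanks and with the matching bases in capitals, since these are the only members with such a match.
Rps20: gtatcacaactTGGTGCTcatccaatatt
Rpl22: gagacacagtgTGGTGCTcctcagaagca
Rpl5: aagtgaacaacTGGTGCTaatccatggct
Rps3: cagtttggtttTGGTGCTcttgatggaac
Rps15a: aacgctacaacTGGTGCTgtgtcctgcca

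Of all tested genes, 4.61% were called higher in KO and 0.507% lower in the fit by genotype alone with all 8 libraries. None of these 5 members was called in that fit. Their log2 fold changes, KO minus WT, were 0.31 for Rps20, -0.19 for Rpl22, 0.30 for Rpl5, 0.45 for Rps3 and 0.27 for Rps15a, with unadjusted limma p-values of 0.125, 0.306, 0.116, 0.0675 and 0.101. With 1 library left out, 4 of them were called higher in some fit, and in the fits concerned 12.1% (without WT1), 3.67% (without KO1) and 5.17% (without KO4) of all tested genes were. Without WT1 these were Rps20 at 0.42 and Rpl5 at 0.40, with unadjusted limma p-values of 0.0337 and 0.0209. Without KO1 it was Rps15a at 0.37 (0.0338), and without KO4 it was Rps3 at 0.56 (0.0425). Rps3 was also called at 0.62 in libraries 1 to 3 of each group, with an unadjusted limma p of 0.0482 (4.23% of all genes were called higher). With the replicate number added to the fit as a block, Rps3 was called at 0.45, with an unadjusted limma p of 0.0416 (4.92%). A match of letters is a description and not a site shown to be used.

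The start sites of the members were looked at because most members were high or low in the same libraries. RefSeq windows of 250 bases before and 50 bases after a start were matched for 57 of the 77 members, in 68 windows. CCGGAAG, the letters bound by ETS-family factors, stood on either strand in 42.1% of the matched members, against 9.93% of all 27025 genes with such a window. AAGATGGC, a YY1 sequence, stood in 8.77% against 3.19%, GGGCGG, a GC box, in 61.4% against 38.2%, and TATAAA in 10.5% against 15.7%. A run of at least 8 pyrimidines that reached within 20 bases of the start was found in 54.4% of the matched members and 23.7% of all genes. It was read on the transcribed strand and had to hold at least 1 C, and it can overlap an ETS match read on the other strand. The 27025 genes were not limited to those tested here. The shares among tested genes alone were not computed, so these contrasts do not set the members apart from other expressed genes.

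Windows of 40 bases before and 20 bases from the annotated start are shown for the called member Rps9, for the paralogs Rps27 and Rps27l, of which the first differed sharply between libraries, for Rpl13a and Rplp2, which were low in WT1, and for Rpl35, which was high there. Capitals mark CCGGAAG or the longest such pyrimidine run, and in Rps27l the first of 2 runs of equal length.
Rps9 (GRCm38.p6, chr7:3704001-3704060, plus strand): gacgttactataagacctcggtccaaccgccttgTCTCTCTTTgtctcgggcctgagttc
Rps27 (chr3:90213629-90213688, minus strand): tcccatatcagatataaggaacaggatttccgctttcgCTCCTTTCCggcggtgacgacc
Rps27l (chr9:66946046-66946105, plus strand): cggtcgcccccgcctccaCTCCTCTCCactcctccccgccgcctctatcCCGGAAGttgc
Rpl13a (chr7:45128726-45128785, minus strand): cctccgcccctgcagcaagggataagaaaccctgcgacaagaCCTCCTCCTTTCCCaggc
Rplp2 (chr7:141447611-141447670, plus strand): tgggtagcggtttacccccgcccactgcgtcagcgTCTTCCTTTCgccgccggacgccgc
Rpl35 (chr2:39005112-39005171, minus strand): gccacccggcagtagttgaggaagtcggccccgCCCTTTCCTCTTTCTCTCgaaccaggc

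The printed windows were chosen after the values had been seen, and each of them holds a pyrimidine run. The window of the called member Rps2, which is not shown, holds none.

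The 8 libraries were of similar depth and held the markers of the cochlea. The number of reads behind a value is unknown. A relative depth of 0.952 to 1.17, with the median library at 1, was read from the smallest FPKM values, those under 0.1, by the ratio that recurred most between each library and WT2. The total FPKM was 249221 to 288695. All 10 hair cell, 15 support cell and lateral wall, 10 spiral ganglion neuron and 8 Schwann cell markers were listed above 0 in every library, with summed FPKM of 32.3 to 53.7, 1992 to 3209, 464 to 1402 and 423 to 1427. Library WT1 stood apart, with the lowest neuron and Schwann cell sums and with 7.09% of its total in Gm8797 alone.

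The members were abundant and spread over a wide range of levels. Mean FPKM had a median of 90.3, and 53 of the 77 members lay within 2-fold of it. FPKM is scaled by length, but the lengths and the counting behind these values are not given, so the order of different genes is uncertain. The highest were Rplp1 at 331, Rpl13a at 210, Rplp0 at 207, Rpl26 at 203 and Rps14 at 200.01, of which Rplp0 and Rplp1 encode the stalk of the large subunit. The lowest were Rpl29 at 2.85, Rpl17 at 11.03, Rps28 at 12.7, Rpl21 at 17.1 and Rps20 at 17.7. Among these highest and lowest members, Rps14, Rpl29, Rpl17 and Rps28 had deposited coordinates that differed from those of GENCODE. The median was 107 for the small subunit and 84.8 for the large one.

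In 13 of the 77 members the deposited coordinates differed from those of GENCODE, and the locus given for Rpl30, for example, spanned 127 kb against 3.14 kb. The range over the 8 libraries, on the log2 scale, had a median of 1.53 in these 13 and 1.03 in the other 64. It was from 0.60 (Rps18) to 4.64 (Rpl23a) in the 13, of which Rps18, Rpl22, Rpl7, Rpl3, Rps14 and Rps28 lay at or below the median of the other 64. Processed copies of ribosomal protein genes are common in the mouse genome, and a median of 20.9% of the 50-base words of a member's transcripts also occurred in another gene, with more than 50% in 5 members (Rpl23a, Rpl19, Rpl36, Rplp1 and Rpl24). Across the members, which are not independent, Spearman's rho between this share and the range over the libraries was 0.017. How the authors' tool divided such fragments is not given in the sources used here.

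The summed level of the members differed more within a genotype than between genotypes. As a share of the total FPKM they came to 3.69% in WT1, 2.56% in WT2, 2.54% in WT3 and 2.51% in WT4, and 2.92% in KO1, 3.42% in KO2, 3.61% in KO3 and 2.52% in KO4. WT1 and KO1 to KO3 were thus high, while WT2 to WT4 and KO4 lay between 2.51% and 2.56%, and the genotypes overlapped. The mean share was 2.83% ± 0.58 over the WT libraries and 3.12% ± 0.49 over the KO libraries (SD, n = 4 each), a difference of 0.30 percentage points that is smaller than the SD of either group. Without WT1 the difference was 0.58 points, and without KO3 it was 0.13 points.

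**Figure D1:**
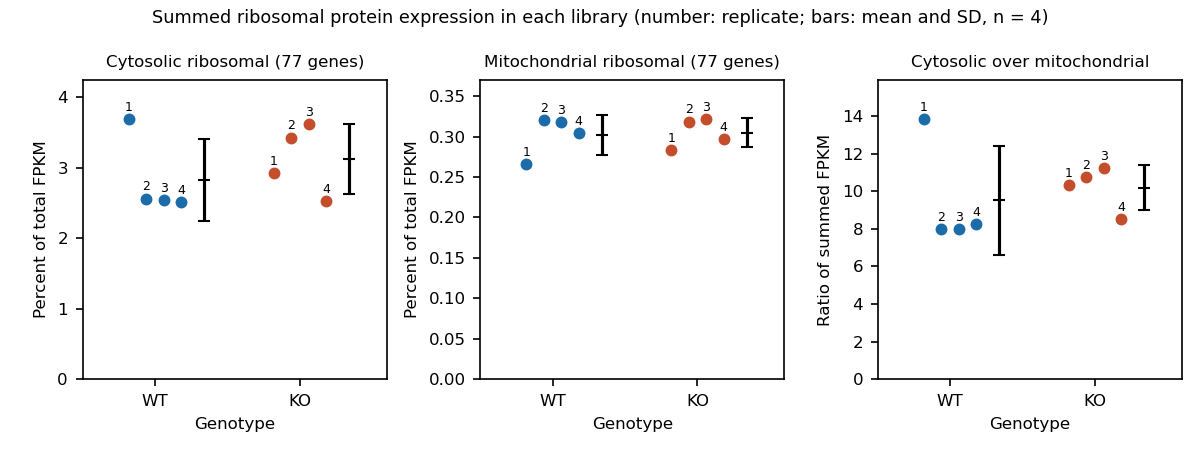
Summed FPKM of the 77 cytosolic and the 77 mitochondrial ribosomal protein genes as percent of the library's total FPKM, and the ratio of the sums, for each library (points, numbered by replicate, WT blue and KO red) with the group mean and SD (n = 4). WT1 has the highest cytosolic share (3.69%) and the lowest mitochondrial share (0.266%), and KO4 lies beside WT2 to WT4 in the first panel.

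Gene by gene, KO3 was most often the highest library, and WT1 was often the highest but also the lowest for some members. The highest of the 8 libraries was KO3 for 38 members, WT1 for 26, KO2 for 8, KO1 and KO4 for 2 each and WT2 for 1. KO2 and KO3 were the lowest library for 0 members and WT1 for 11. WT1 lay above the other WT libraries for 51 members, below them for 13 and among them for 13, and KO4 lay below the other KO libraries for 52, above for 2 and among them for 23. The median SD of a member over the WT libraries was 0.32 on the log2 scale, and 0.13 without WT1, against 0.39 over the KO libraries.

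**Figure D2:**
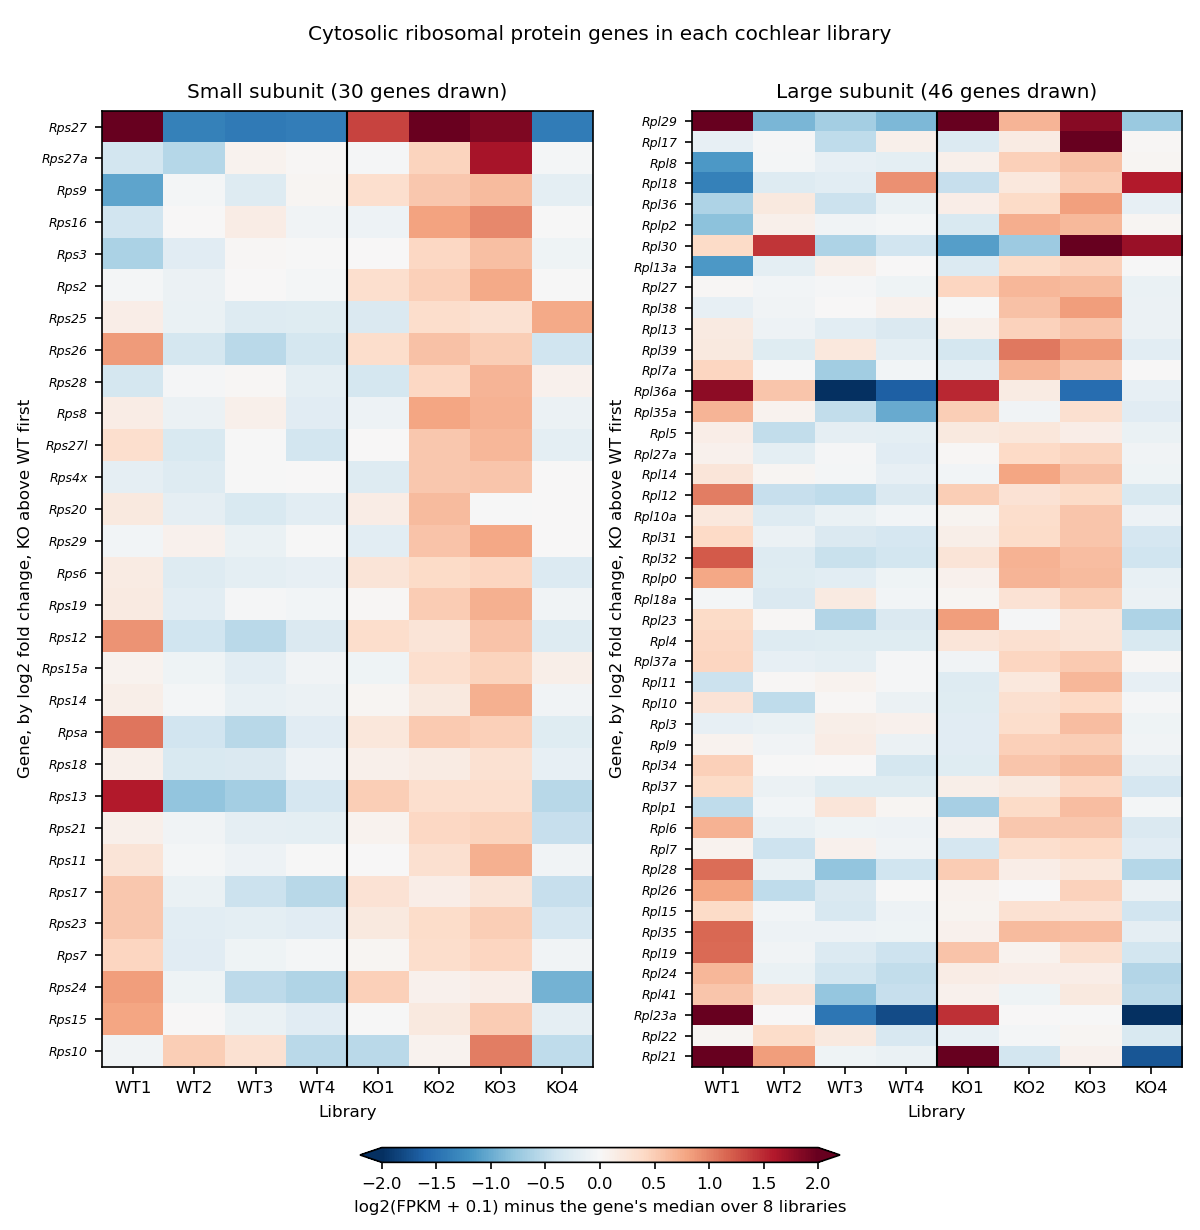
For 76 of the 77 members, each cell gives log2(FPKM + 0.1) of 1 member in 1 library minus that member's median over the 8 libraries, with the small subunit on the left, the large subunit on the right and genes ordered by fold change, KO above WT first. The colour scale stops at 2 in both directions. Most members are red in KO2 and KO3 and near white or blue in WT2 to WT4 and KO4, and WT1 holds both deep red (Rps27, Rps13) and deep blue cells (Rpl8, Rpl18, Rpl13a).

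The mix of members also differed between libraries. Pearson's correlation of log2 levels across the 77 members, which are not independent, was 0.71 to 0.77 between WT1 and the other WT libraries, 0.94 to 0.98 among those, and 0.91 between WT1 and KO1. KO1 had 0.88 with KO2, 0.73 with KO3 and 0.71 with KO4. KO4 had 0.93 with WT2, 0.94 with WT3 and 0.96 with WT4. These values describe libraries that share an annotation and a way of counting.

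The mitochondrial ribosome gives a comparison from a separate set of nuclear genes. Its 77 listed members, all with a mean of at least 0.5 FPKM, summed to 0.266% of the total in WT1, 0.320% in WT2, 0.318% in WT3 and 0.304% in WT4, and to 0.283% in KO1, 0.318% in KO2, 0.322% in KO3 and 0.296% in KO4. WT1, the library with the highest cytosolic share, had the lowest mitochondrial share. The ratio of cytosolic to mitochondrial sums was 13.9 in WT1 and 7.996, 7.98 and 8.26 in WT2, WT3 and WT4. In KO1, KO2, KO3 and KO4 it was 10.3, 10.8, 11.2 and 8.51, and the WT range covered the KO range. That overlap came from WT1: without it the WT ratios had a mean of 8.08 ± 0.16 (SD, n = 3) and lay below every KO ratio, which had a mean of 10.2 ± 1.19 (SD, n = 4).

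Between genotypes, few members passed the test. Each gene was tested with limma on log2(FPKM + 0.1), and a gene was called at an unadjusted p-value under 0.05, the threshold of the study's methods. Of the 77 members, 3 were called higher in KO (Rpl8, Rps2 and Rps9) and 0 lower, which is 3.90% against 4.61% of the 14990 tested genes called higher and 0.507% called lower. No member passed Benjamini-Hochberg adjustment over all tested genes in limma (lowest adjusted p = 0.947), and neither did any other gene (0.0%), although 767 had an unadjusted p-value under 0.05. The share of members called was close to that of all genes.

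The direction was more uniform than the calls. The fold change was above 0 in 74 of the 77 members (96.1%) and in 66.5% of all tested genes, and its median on the log2 scale was 0.27 for the members and 0.10 for all tested genes. It was 0.31 for the small subunit, with 30 of 31 above 0, and 0.24 for the large one, with 44 of 46. Only 12 members had a fold change larger than the SD of both groups. Libraries were not scaled further here, and median-ratio scaling, quantile normalization and an equal total in every library brought the median of all genes to 0.0045, -0.037 and 0.021 and that of the members to 0.17, 0.14 and 0.19. The median of the members thus stayed 0.17 to 0.18 above that of all genes, with 66, 62 and 67 of the 77 above 0. Leaving out a single library moved this distance more, to 0.40 without WT1, 0.069 without WT2, 0.089 without WT3, 0.068 without WT4, 0.11 without KO2, 0.078 without KO3 and 0.28 without KO4, except that it was 0.16 without KO1. With those scalings the genes called were 402 higher and 361 lower, 378 higher and 547 lower, and 438 higher and 142 lower, instead of 691 and 76.

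**Figure D3:**
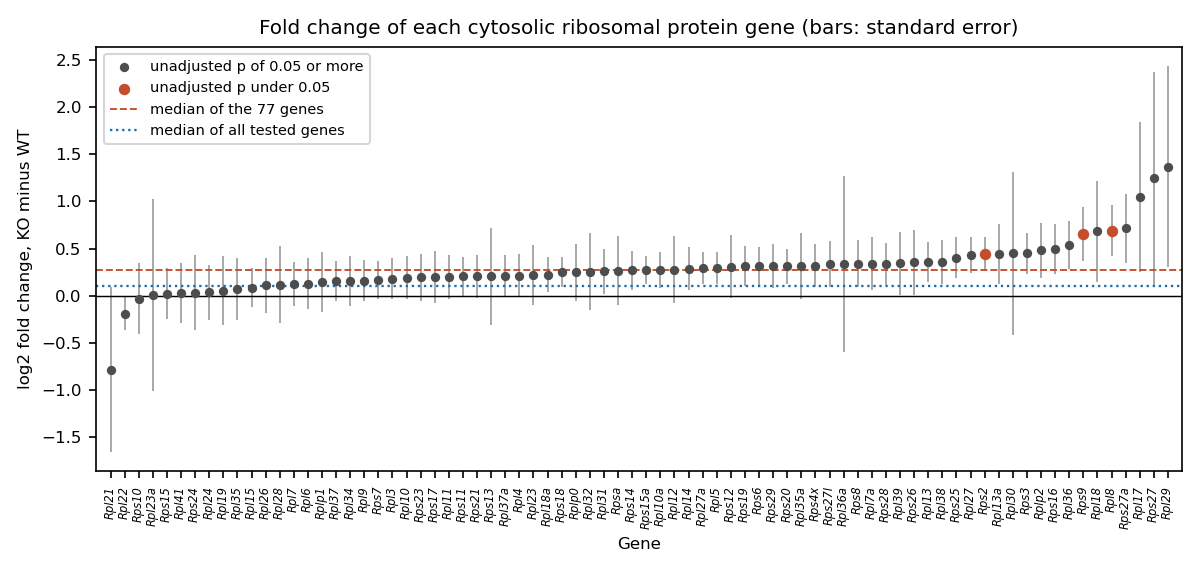
Log2 fold change (KO minus WT) of 76 of the 77 members on log2(FPKM + 0.1), with its standard error from limma, in ascending order. Red points are the 3 called members, the dashed line is the median of all 77 members (0.27) and the dotted line that of all tested genes (0.10). The widest bars belong to Rps27, Rpl29, Rpl23a and Rpl36a.

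The number of calls rested on single libraries. Without WT1, 15 members were called higher, where 12.1% of all genes were. Without KO2 or without KO3, 0 were, against a background of 2.16% and 1.95%. The count was 3 without WT2 (background 3.61%), 1 without WT3 (3.58%), 2 without WT4 (4.24%), 6 without KO1 (3.67%) and 7 without KO4 (5.17%), and 0 members were called lower in any of these fits, against 7.40% of all genes without WT1 and 0.233% to 0.634% in the others. The 3 members named above kept their direction in each, but of these fits only the one without KO4 called all 3. None of these fits gave a member an adjusted p-value under 0.05.

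Rpl8, a protein next to the peptidyl transferase centre of the large subunit, was the only member whose genotypes did not overlap, against 3.5% of all tested genes. It lies at chr15:76904078-76906314 on the plus strand (GRCm38). Its FPKM was 67.2, 144, 132 and 129 in WT1 to WT4 and 159, 208, 222 and 153 in KO1 to KO4. WT1 was far below the other WT libraries, and KO4 was only slightly above WT2. The means were 118 ± 34.5 in WT and 185 ± 34.6 in KO (SD, n = 4 each), a log2 fold change of 0.69 ± 0.27 (SE). The unadjusted limma p was 0.0332. An exact two-sided permutation test over the 8 libraries gave p = 0.0286, the smallest that 4 against 4 libraries can give. Every gene whose groups do not overlap reaches that value, so it restates the separation and adds no support. Without WT1 the fold change was 0.44, with an unadjusted limma p of 0.0359, and without KO2 or KO3 the call was lost, at 0.0798 and 0.0851, as it was under quantile normalization (0.120) and centring on the members (0.306).

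Rps2, at the mRNA entry of the small subunit, varied little among the WT libraries. Rps2 (chr17:24718116-24721929, plus strand) had FPKM of 96.7, 92.1, 100.2 and 96.5 in WT1 to WT4 and 127, 139, 168 and 99.2 in KO1 to KO4. KO4 lay within the WT range and the other KO libraries above it. The log2 fold change was 0.44 ± 0.18 (SE), with an unadjusted limma p of 0.0388 (exact two-sided permutation test, p = 0.0571). The call was lost without any 1 of WT2, WT3, WT4, KO1, KO2 or KO3, at limma p-values of 0.0569 to 0.106, and also under median-ratio scaling (0.115), quantile normalization (0.0543) and centring on the members (0.563). Of the 50-base words of its transcripts, 43.0% occurred in another gene.

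Rps9, a small subunit protein that affects the accuracy of decoding, had FPKM of 52.6, 106, 90.8 and 111 in WT1 to WT4 and 137, 157, 168 and 95.4 in KO1 to KO4. WT1 was again lowest, and KO4 lay within the range of the WT libraries. Its locus is chr7:3703993-3706897 on the plus strand. The log2 fold change was 0.65 ± 0.28 (SE), and the unadjusted limma p of 0.0480 was the closest of the 3 to the threshold (exact two-sided permutation test, p = 0.0857). Without WT1 the fold change was 0.41 and the call was lost with a limma p-value of 0.0827, as it was without WT3 (0.0709), KO1 (0.0843), KO2 (0.110) or KO3 (0.118). It was also lost with no filter on low values (0.0512), no mean-variance trend (0.0514), an equal total in every library (0.0624), quantile normalization (0.0848) and centring on the members (0.3396).

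The stalk proteins, which recruit the translational GTPases, did not share 1 pattern. Rplp0 had FPKM of 300, 148, 150 and 165 in WT1 to WT4 and 185, 281, 271 and 158 in KO1 to KO4, highest in WT1. Rplp1 had 224, 305, 377 and 328 and then 201, 417, 486 and 309, with WT1 and KO1 lowest. Rplp2 had 42.9, 81.5, 72.1 and 73.9 and then 61.6, 126, 119 and 77.7, also with WT1 and KO1 lowest. All these genotypes overlapped, and the log2 fold changes were 0.25 ± 0.30, 0.14 ± 0.32 and 0.48 ± 0.29 (SE). Rplp2 was called without KO1, at 0.68 with an unadjusted limma p of 0.0448, and was at 0.28 without WT1. With the replicate block and all 8 libraries it was called at 0.48, with an unadjusted limma p of 0.0230 (4.92% of all genes were called higher). Rplp0 was at 0.49 without WT1 and at 0.13 without KO2, and Rplp1 was near 0 without WT1, none of them called.

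Rpsa and Rps6 did not pass the test with all 8 libraries. Rpsa, also known as the laminin receptor, had FPKM of 200, 72.9, 64.9 and 81.8 in WT1 to WT4 and 111, 137, 133 and 80.7 in KO1 to KO4. WT1 was the highest of the 8, and its log2 fold change was 0.27 ± 0.36 (SE), or 0.63 without WT1, where it was called with an unadjusted limma p of 0.0134. Rps6, the substrate of S6 kinase, had 174, 130, 136 and 139 and then 186, 202, 209 and 129. KO4 was the lowest of the 8, and the log2 fold change was 0.31 ± 0.21, or 0.47 without KO4, where it was called with an unadjusted limma p of 0.0368.

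The 3 largest fold changes were those of Rpl29, Rps27 and Rpl17. With all 8 libraries in the fit by genotype alone, none of these members was called. Rpl29 had 4.97, 0.378, 0.461 and 0.384 FPKM in WT1 to WT4 and 11.7, 1.35, 3.07 and 0.436 in KO1 to KO4. WT1, KO1, KO2 and KO3 were high in both genotypes, and the log2 fold change was 1.37 ± 1.06 (SE). It was 2.20 without WT1, where it was called with an unadjusted limma p of 0.0391, 2.07 without KO4 and 0.58 without KO1. With the replicate block Rpl29 was called higher at 1.37, with an unadjusted limma p of 0.0191 (4.92% of all genes were called higher). Rpl17 had 4.01, 4.42, 3.11 and 4.81 and then 3.68, 5.03, 58.7 and 4.54. Its log2 fold change of 1.04 ± 0.80 rested on KO3 alone, which was 11.7-fold above the next library, and was 0.12 without it. The locus given for Rpl17 was 11.6 kb long against 4.82 kb in GENCODE and overlapped BC031181.

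Rps27 fell into low and high libraries that cut across genotype. This small subunit protein, a zinc finger protein once called metallopanstimulin, had FPKM of 394, 19.4, 18.6 and 19.2 in WT1 to WT4 and 128, 198, 182 and 19.0 in KO1 to KO4. It was thus near 19 in WT2 to WT4 and KO4 and at 128 or more in WT1 and KO1 to KO3. The log2 fold change was 1.25 ± 1.13 (SE) with an unadjusted limma p of 0.299, and without WT1 it was 2.34 with one of 0.0129. Without KO4 it was 2.03, not past the threshold. Rps27rt, an intronless copy that shared 296 of the 50-base words of Rps27, had 29.3, 99.99, 80.3 and 69.6 and then 129, 54.6, 60.4 and 75.9, and was lowest in WT1. Their sum still ran from 88.8 in WT4 to 423 in WT1. The paralog Rps27l had 47.7, 30.4, 37.5 and 29.0 and then 37.7, 55.0, 59.9 and 32.7. It was also higher in WT1 and KO1 to KO3 than in the other libraries, but by a far smaller margin, with WT3 and KO1 nearly equal.

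Few members were lower in KO on the log2 scale, and none of them was called with all 8 libraries in the fit by genotype alone. Rpl21 had FPKM of 53.1, 14.6, 7.63 and 7.42 in WT1 to WT4 and 37.0, 6.25, 8.67 and 2.42 in KO1 to KO4, with WT1 and KO1 the highest and KO4 the lowest. Its log2 fold change was -0.78 ± 0.87 (SE), and it was -0.16 without WT1, -0.20 without KO4 and -1.49 without KO1, not past the threshold in any of them. Rpl22, which also binds RNA outside the ribosome, had 39.2, 49.4, 43.9 and 30.4 and then 34.3, 37.1, 39.3 and 30.7, a log2 fold change of -0.19 ± 0.17. Rps10 had 69.9, 104, 91.6 and 50.6 and then 50.9, 77.8, 150 and 51.8, a log2 fold change of -0.032 ± 0.38. Mean FPKM can point the other way. It was 79.0 in WT and 82.6 in KO for Rps10. For Rpl23a, whose log2 fold change was 0.0092, it was 135 in WT and 97.7 in KO. The genotypes of these members overlapped, and the sign of Rps10 turned without WT2, WT3, KO1 or KO4.

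The 10 members with the widest range over the libraries were Rpl23a, Rpl29, Rpl21, Rps27, Rpl17, Rpl36a, Rpl30, Rpl18, Rps13 and Rps27a, from 2.22 to 4.64 on the log2 scale, whereas the other 67 reached at most 1.90. Those of these 10 that the naming rule did not cover were chosen after their values had been seen. Of the 10, 5 had deposited coordinates that differed from GENCODE and 8 overlapped another listed gene, against 8 and 18 of the other 67. With all 8 libraries in the fit by genotype alone, 0 of the 10 were called (4.61% of all tested genes were called higher and 0.507% lower). With the replicate block, Rpl18, Rpl29 and Rps27a were called higher (against 4.92% of all genes) and Rpl21 lower (against 0.667%). The genotypes overlapped in all 10. Rpl23a, for example, had FPKM of 407, 79.5, 28.9 and 22.8 in WT1 to WT4 and 217, 79.1, 78.6 and 16.3 in KO1 to KO4, highest in WT1 and KO1. Rpl30 had 19.7, 40.6, 9.84 and 11.6 and then 6.98, 9.14, 98.6 and 50.3, highest in KO3 and lowest in KO1. Rpl18 was highest in WT4 (38.6) and KO4 (61.7) and lowest in WT1 (7.97).

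**Figure D4:**
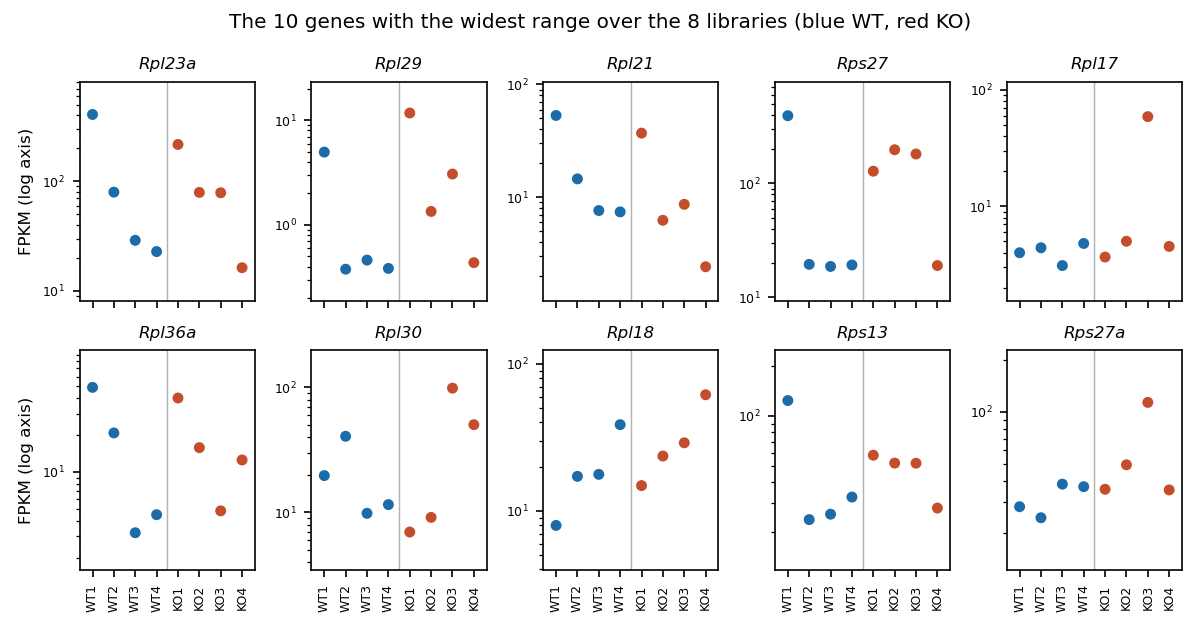
FPKM on a log axis in each library (WT blue, KO red) for the 10 members with the widest range. Rps27 and Rpl29 are high in WT1, KO1, KO2 and KO3, Rpl23a, Rpl21 and Rpl36a are highest in WT1 and KO1, and Rpl17 and Rps27a are highest in KO3.

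The paralogs that replace a ubiquitous protein in some tissues were nearly absent. Rpl10l, a testis paralog of Rpl10, was listed at 0 in every library, and Rpl39l had a mean of 0.0574 FPKM, while Rpl10 had 142 and Rpl39 74.2. Rpl3l, the striated muscle paralog of Rpl3, was listed at 0, 0.0262, 0 and 0.0546 in WT1 to WT4 and at 0.0418, 0.0976, 2.37 and 0.511 in KO1 to KO4, while Rpl3 had 114 to 206. The 10 skeletal muscle markers summed to 334 FPKM in KO3 and 43.6 in KO4, the libraries with the highest Rpl3l, and to at most 12.8 elsewhere. The part of muscle RNA in the Rpl3l values was not tested.

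Other paralogs were well expressed beside the ubiquitous form. Rpl36al had 44.3 ± 4.99 FPKM in WT and 59.0 ± 12.2 in KO (SD, n = 4 each), with a log2 fold change of 0.39 ± 0.18 (SE). Rpl36a itself ran from 3.19 in WT3 to 49.0 in WT1. Rpl7l1 had 13.0, 13.4, 13.9 and 12.03 in WT1 to WT4 and 14.5, 17.9, 16.8 and 14.4 in KO1 to KO4, so that its genotypes did not overlap. Its log2 fold change was 0.27 ± 0.13 (SE), and its unadjusted limma p of 0.0622 missed the threshold. Rpl7, with 142 to 201 in WT and 151 to 249 in KO, overlapped. Rpl22l1 had 10.6 to 22.6 in WT and 10.5 to 32.6 in KO. Rps4x, the X-linked form of its protein, had 155 to 186 in WT and 156 to 273 in KO.

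Of 13 related genes and paralogs looked for, 11 were found and 8 tested, of which 0 were called, against 4.61% of all tested genes called higher. Rps27l, Rpl10l, Rpl39l and Rpl3l of these also meet the symbol rule. Rps27a, which encodes ubiquitin fused to a small subunit protein, is a member of the symbol rule, with FPKM of 28.2, 24.4, 38.2 and 36.9 in WT1 to WT4 and 35.6, 49.4, 114 and 35.3 in KO1 to KO4, highest in KO3. Rps3a1 had a mean of 225 FPKM and a log2 fold change of 0.30 ± 0.22 (SE), Fau a mean of 169.9 FPKM and 0.22 ± 0.22, and Rack1 a mean of 97.1 FPKM and 0.20 ± 0.24.

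Counts of calls in the other genes of translation are to be read against the 4.61% of all tested genes called higher. Of 42 translation factors, 1 was called higher (2.38%) and 0 lower, with a median log2 fold change of 0.14 and 40 above 0. The called factor was Eif3b, a scaffold subunit of the initiation factor eIF3, at 26.6 ± 2.26 FPKM in WT and 32.9 ± 2.55 in KO (SD, n = 4 each), a log2 fold change of 0.30 ± 0.12 (SE). Pabpc1, the poly(A)-binding protein whose mRNA also carries a pyrimidine tract, had 216, 115, 94.0 and 128 FPKM in WT1 to WT4, and its log2 fold change of 0.61 ± 0.28 missed the threshold with an unadjusted limma p of 0.0579. Eif5a followed at 0.31 ± 0.19.

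Of 72 ribosome biogenesis genes, 3 (4.17%, against 4.61% of all tested genes) were called higher (Ddx21, Emg1 and Rrp15) and 0 lower, with a median of 0.17. Ddx21, a nucleolar RNA helicase, had 9.08 ± 1.06 FPKM in WT and 12.04 ± 1.68 in KO (SD, n = 4 each). Emg1, a methyltransferase of 18S rRNA, had 16.8 ± 2.50 and 23.7 ± 4.78, and Rrp15 had 1.87 ± 0.38 and 2.72 ± 0.23. The groups of these 3 genes did not overlap, as in 3.5% of all tested genes. Of 77 mitochondrial ribosomal protein genes, 1 was called higher, which is 1.30% (Mrpl18, log2 fold change 0.39 ± 0.16) and 0 lower, with a median of 0.092, and Mrpl1 (0.30 ± 0.13) and Mrpl14 (0.69 ± 0.41) followed.

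Of 18 genes that control translation, 1 was called higher, which is 5.56% (Eif4ebp2, a repressor of cap-dependent initiation, 0.33 ± 0.13 on the log2 scale) and 0 lower. Akt1s1, an mTOR inhibitor, had 1.05 ± 0.48 and Eif4ebp1 0.88 ± 0.44, neither past the threshold. Of 11 genes of ribosomal protein turnover and surveillance, 1 was called higher, which is 9.09% (Rnf10, a ubiquitin ligase of small subunit proteins, 0.30 ± 0.13) and 0 lower, and the next were Hbs1l (0.21 ± 0.12) and Pelo (0.33 ± 0.21), which rescue stalled ribosomes. All these calls are unadjusted, and the adjusted limma p of each was 0.947.

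When each library was centred on its mean member level, the members were set against each other. In that fit 0 members were called in either direction, against 1.65% of all tested genes. Rpl8 had a log2 fold change of 0.40 relative to the other members, Rps9 of 0.36 and Rps2 of 0.15. Rpl22 had the smallest unadjusted p-value of the members in that limma fit, 0.105, at -0.48.

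Markers of erythroid precursors, neutrophils and dividing cells were highest in the libraries with a high members' share, WT1 and KO1 to KO3. The 10 erythroid precursor markers summed to 7522, 2455, 538 and 3671 FPKM in WT1 to WT4 and to 6629, 8625, 12220 and 5001 in KO1 to KO4. The 17 dividing cell markers summed to 415, 114, 36.4 and 130 and then to 342, 343, 353 and 168. The 10 neutrophil markers summed to 10082, 692, 73.9 and 953 and then to 3586, 2523, 5337 and 1773. In each of these lists WT1 and KO1 to KO3 were above KO4, and WT2 to WT4 were below KO4. The members' share did not follow the sums within WT2 to WT4 and KO4. It was 2.51% to 2.56% there, while the erythroid sums ran from 538 to 5001.

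Other lists followed in part. The 10 pre-B cell markers summed to 35.1 to 71.1 in WT and 72.1 to 132 in KO, so that the groups did not overlap, the 8 macrophage markers to 69.6 to 145 and 74.7 to 154, and the 10 osteoblast and bone markers to 116 to 781 and 705 to 903. Called higher were 4 of 10 erythroid, 5 of 10 pre-B cell, 2 of 17 dividing cell, 1 of 10 bone and 1 of 8 tested muscle markers, and 0 of 10 neutrophil and 0 of 8 macrophage markers, against 4.61% of all tested genes. Of the cochlear lists (10 hair cell, 15 support cell and lateral wall, 10 neuron and 8 Schwann cell markers), only Tectb was called. Tectb, of the support cell and lateral wall list, was called lower, against 0.507% of all tested genes. Of these lists, Ctsg among the neutrophil markers and Myh2, Myh7 and Tnnt3 among the muscle markers were listed at 0 in at least 1 library. The part of these cells in the members' levels was not tested, and in bulk RNA more cells of a type and more RNA per cell cannot be told apart.

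**Figure D5:**
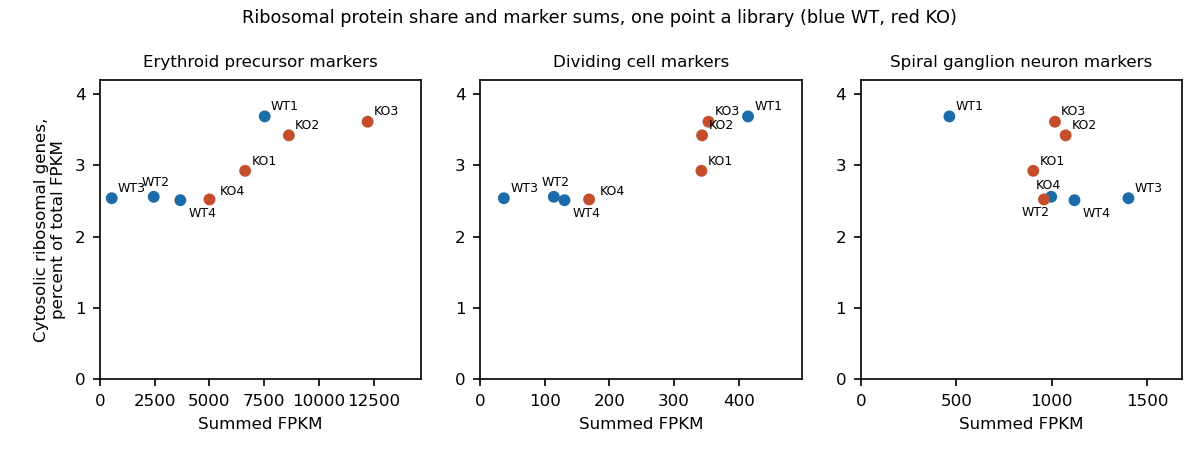
Members' share of the total FPKM (y axis, percent) against the summed FPKM of 10 erythroid precursor markers, 17 dividing cell markers and 10 spiral ganglion neuron markers (x axes), 1 point per library (WT blue, KO red). WT2 to WT4 and KO4, with shares of 2.51% to 2.56%, have the 4 lowest sums in the first and second panels, and WT1 has the lowest neuron sum (464).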

How the data were processed

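The authors made strand-specific, rRNA-depleted libraries from cochlear total RNA, aligned the read pairs by Hisat2 and deposited 1 FPKM value per gene and library. The tool and annotation behind the FPKM are not given in the sources used here. The submitters' processing notes name mm9, whereas the deposited coordinates of 19840 of 21837 matched genes equal those of GENCODE M21 (GRCm38). All value columns were used (0 left out). Since FPKM are not counts, the authors' count-based test was not repeated.

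The log2 of FPKM + 0.1 was fitted with limma 3.58.1 (R 4.3.3), with genotype as the only factor, moderated variances and a mean-variance trend, over the 14990 genes with a mean of at least 0.5 FPKM in all 8 libraries, and p-values were two-sided. On simulated data of this size, 186 of 200 genes changed by 2 on the log2 scale were recovered at an unadjusted p under 0.05, and 146 at an adjusted one. The genes were simulated independently of each other. Smaller changes, such as the members' median of 0.27, were not simulated, so their recovery is unknown. Summaries used Python 3.11.15. The alternatives were other pseudocounts, filters, scalings and variance models, a replicate block, libraries 1 to 3 of each group and leaving out each library.

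The members and all gene lists were chosen with earlier results of these data known. Named members are those called, the 5 highest and 5 lowest by mean FPKM, the 3 largest fold changes in each direction, paralog pairs, Rplp0, Rplp1, Rplp2, Rpsa and Rps6, and in each related list the 3 of lowest p-value and any gene called in the opposite direction. The values of 1 member and of 1 related gene are not reported here singly, and the member is left out of the plots by gene, while both are kept in the counts, sums and medians.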

Additional observations from a re-analysis of the deposited data

Results flagged for a closer look

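Each member was looked at for a library far from the other 3 of its group, by a limit that chance passes in about 1 of 20 groups. Of 156 groups looked at, 21 held such a library, and in 18 of them it was WT1, always as the highest. The members share the same libraries and are not independent, so the 21 cannot be set against that rate.

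For the summed share of the members, WT1 stood at 3.69% while the other WT libraries lay between 2.51% and 2.56%. Large subunit members with WT1 far above the other WT libraries were Rpl23a at 407 FPKM, Rplp0 at 299.9, Rpl19 at 256, Rpl4 at 216, Rpl6 at 183, Rpl32 at 178, Rpl35 at 160.1, Rpl12 at 125, Rpl37 at 74.9, Rpl21 at 53.1 and Rpl29 at 4.97. Small subunit members were Rps27 at 394, Rpsa at 200.5, Rps26 at 172, Rps12 at 137, Rps23 at 131 and Rps13 at 124. The gap was widest relative to the spread in Rps27, whose other WT libraries lay between 18.6 and 19.4.

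In the KO group, KO4 was far below the other libraries for Rpl4 (131, others 192 to 203) and Rpl24 (53.9, others 89.3 to 90.04), and KO3 was far above them for Rpl17 (58.7, others 3.68 to 5.03).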

How the results depend on the processing

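The sources are FPKM with an unknown number of reads, so counting error could not be given. The median fold change of the members stayed above 0 in all fits but that centred on the members (-0.019), between 0.14 and 0.35 in the other planned fits on all or 6 libraries. Leaving out 1 library gave 0.16 to 0.38 for that median, 0.13 to 0.58 percentage points for the difference in summed share, 0 to 15 members called higher, 0 called lower, 1 to 6 members (1.30% to 7.79%) with groups that do not overlap against 4.23% to 18.3% of all genes, and 347 to 2922 of all genes called. Centring on the members gave 0 members called higher (1.03% of all genes) and 0 lower (0.614%), with 247 of all genes called, and quantile normalization gave 0 members in either direction (2.52% of all genes higher and 3.65% lower). Libraries 1 to 3 of each group gave 6 members called higher (7.79%, against 4.23% of all genes) and 6 whose groups do not overlap (7.79%, against 10.8%). With an equal total in every library, an alternative chosen after seeing the data, 2 members did not overlap (2.60%, against 3.11%). With the replicate block, 9 members were called higher (11.7%, against 4.92% of all genes) and 1 lower (1.30%, against 0.667%). Those higher included Rpl8 and Rps2, the 2 shared with the fit without it, and Rpl18 and Rps27a. They also included Rps3 at 0.45, Rplp2 at 0.48 and Rpl29 at 1.37, with unadjusted limma p-values of 0.0416, 0.0230 and 0.0191. The member called lower was Rpl21, with an unadjusted limma p of 0.0467. Rps9 lost its call at an unadjusted limma p of 0.05997. The replicate numbers are not said to pair animals, and same-numbered libraries deviated together by correlations of 0.42, -0.24, -0.17 and 0.21 over all genes and 0.73, -0.36, 0.20 and 0.61 over the members, so not every pair deviated together. By the limit of 0.1 for every pair the numbers were not taken to pair the libraries. The cause of these changes was not tested.

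Of 468 fold changes of 26 named members under other settings, 411 kept their sign and their side of the threshold, 24 lost the call, 10 gained it and 23 changed sign. Of those that changed sign, centring on the members gave -0.098 for Rpl10, -0.18 for Rpl26, -0.11 for Rpl3, -0.16 for Rpl7, -0.039 for Rplp0, -0.15 for Rplp1, -0.023 for Rps14 and -0.024 for Rpsa. Centring lowered every fold change by the same 0.29, so these 8 changes of sign followed from the scaling itself. Quantile normalization gave -0.053 for Rpl26, -0.0057 for Rpl3 and -0.039 for Rpl7. In libraries 1 to 3 of each group, Rpl36a had -0.035. Leaving out 1 library gave -0.055 to 0.37 for Rpl26 (below 0 without WT2 or KO3), -0.25 to 1.05 for Rpl36a (below 0 without WT3, WT4 or KO1), -0.036 to 0.39 for Rplp1 (below 0 without WT1 or KO3) and -0.37 to 0.15 for Rps10 (above 0 without WT2, WT3, KO1 or KO4).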
